A study of Homo sapiens with 24 samples.

Results

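The HOX cluster genes are the protein-coding homeobox genes that lie in a row at 4 places in the human genome, named HOXA, HOXB, HOXC and HOXD. The family was chosen with earlier results of these data known, and its members were taken by gene name from the deposited tables. Every protein-coding gene called HOXA, HOXB, HOXC or HOXD followed by a number was taken, without regard to its own measured values. This gave 39 of the 34305 genes listed: 11 in HOXA on chromosome 7, 10 in HOXB on chromosome 17, 9 in HOXC on chromosome 12 and 9 in HOXD on chromosome 2. Their messenger RNA was measured by bulk RNA sequencing in HEK293, an established human embryonic kidney line, in 8 groups of 3 libraries. Kl denotes a HEK293 line stably transfected with Klotho, a membrane protein with which FGF receptors bind the hormone FGF23, and WT denotes HEK293 without that transfection. Each line was sequenced after recombinant human FGF23 at 10 nM for 24 h and after its Ctrl for 24 h, and likewise after FGF23 at 0.5 nM for 1 h and after its Ctrl for 1 h. Dose and duration changed together, so their effects cannot be told apart. The vector, its promoter and the number of clones behind the Kl line are not given in the sources used here, and Kl is 1 line, so an effect of Klotho and any other difference between these lines cannot be told apart. The labels do not say that the 3 libraries of a group came from separate cultures, so p-values measure the spread between these libraries, which may be technical.

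HOX proteins are transcription factors that bind DNA through a homeodomain, usually together with TALE partners of the PBX, MEIS and PKNOX families, and that give cells their position along the head-to-tail axis. Genes at the low-numbered end of each cluster are switched on first and mark anterior tissue, and the high-numbered genes follow later and mark the lower trunk, limbs and genital region. Retinoic acid, FGF and WNT signals open the clusters in the embryo, Polycomb complexes keep them silent and trithorax complexes keep them active afterwards. In mice the Hox11 genes of the A, C and D clusters act together in the formation of the kidney.

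Library totals ran from 15849564 to 30446989 counts. The transfected gene, KL, had 0 to 14 counts in the 12 WT libraries and 16072 to 54039 in the 12 Kl libraries, so every library matched its line label. Within Kl it stood at 1778 to 2169 CPM (the count of a gene scaled to the size of its library) with FGF23 and at 1003 to 1229 CPM in controls. The median SD of log2 CPM within a group was 0.224 in the Kl FGF23 1 h group and 0.0838 to 0.122 in the other 7 groups, so that group varied most and its results are given below with that in view. Of 18 kidney epithelial markers, 11 passed the filter on low counts. CDH16, AQP2, SLC12A1, SLC12A3 and PAX8 had at most 8 counts in any library, whereas CUBN had 6 to 28, AQP1 11 to 48 and LRP2, a proximal tubule receptor, 225 to 668. The developmental kidney genes PAX2 and LHX1 had 127 to 354 and 370 to 1027 counts, so some of the defining markers of the labelled tissue were at or near 0 and others were present.

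The promoters of 4 HOX genes named in the results below are shown first. The reason is that HOXA10, HOXA11 and HOXA13 stand side by side at the posterior end of their cluster and were all higher in Kl. Each promoter shown is 300 bases, with 250 before and 50 after an annotated transcript start in RefSeq (GRCh38.p14), on the strand of the gene. Capitals mark every CG dinucleotide, whose cytosine can be methylated.
HOXA10, chr7:27179812-27180111, minus strand: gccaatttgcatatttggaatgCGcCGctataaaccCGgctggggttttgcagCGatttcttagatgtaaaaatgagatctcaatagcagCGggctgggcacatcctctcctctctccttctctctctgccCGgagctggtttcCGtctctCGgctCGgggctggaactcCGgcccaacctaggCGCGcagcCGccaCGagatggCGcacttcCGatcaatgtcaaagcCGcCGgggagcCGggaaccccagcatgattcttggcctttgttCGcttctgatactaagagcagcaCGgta
HOXA10, second start, chr7:27174271-27174570, minus strand: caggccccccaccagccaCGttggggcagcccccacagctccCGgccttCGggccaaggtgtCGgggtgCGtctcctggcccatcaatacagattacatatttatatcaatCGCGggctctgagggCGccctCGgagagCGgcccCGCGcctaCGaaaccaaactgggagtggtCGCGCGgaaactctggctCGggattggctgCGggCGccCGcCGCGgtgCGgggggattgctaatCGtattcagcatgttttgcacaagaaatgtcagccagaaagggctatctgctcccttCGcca
HOXA11, chr7:27185183-27185482, minus strand: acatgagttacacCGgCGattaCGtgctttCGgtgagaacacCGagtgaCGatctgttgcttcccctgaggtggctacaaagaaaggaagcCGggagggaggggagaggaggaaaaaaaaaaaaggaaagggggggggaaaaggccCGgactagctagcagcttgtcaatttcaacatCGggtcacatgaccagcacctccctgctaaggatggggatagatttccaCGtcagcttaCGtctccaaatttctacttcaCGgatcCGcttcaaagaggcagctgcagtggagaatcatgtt
HOXA13, chr7:27200042-27200341, minus strand: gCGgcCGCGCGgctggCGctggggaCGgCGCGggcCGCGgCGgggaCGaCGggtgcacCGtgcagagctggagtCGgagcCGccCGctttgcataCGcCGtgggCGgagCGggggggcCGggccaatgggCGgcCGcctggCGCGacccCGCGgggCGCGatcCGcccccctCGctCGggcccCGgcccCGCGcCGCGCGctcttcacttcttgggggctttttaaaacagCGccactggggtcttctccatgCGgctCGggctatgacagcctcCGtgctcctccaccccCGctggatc
HOXD11, chr2:176107030-176107329, plus strand: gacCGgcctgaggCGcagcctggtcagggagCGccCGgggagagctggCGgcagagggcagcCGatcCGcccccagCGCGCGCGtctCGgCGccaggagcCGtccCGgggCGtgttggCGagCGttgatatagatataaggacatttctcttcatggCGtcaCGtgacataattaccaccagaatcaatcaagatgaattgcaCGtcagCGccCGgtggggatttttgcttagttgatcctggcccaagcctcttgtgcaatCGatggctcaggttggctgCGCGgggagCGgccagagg
The windows held 21 and 25 CG at the starts of HOXA10, 13 at HOXA11, 44 at HOXA13 and 27 at HOXD11. Over the 27 windows that the RefSeq table holds for 20 of the HOX genes (HOXC4 and HOXC5 share 1 of them) the median was 22 CG, against 14 over all 35116 windows. The 7 motifs searched as letters on both strands were EGR (GCGNGGGCG), PBX-HOX (TGATNNAT), ETS (CCGGAAGT), AP-1 (TGANTCA), CRE (TGACGTCA), TCF-LEF (CTTTGATC) and SRF (CCATATTAG). The EGR motif was in the windows of HOXA7, HOXA9 and HOXD1 and in 9.43% of all windows, and the PBX-HOX motif was in those of HOXA2, HOXB1 and HOXD11 and in 7.40% of all. No match of one of these overlapped the other. None of the 27 HOX windows held the ETS, AP-1, CRE, TCF-LEF or SRF motif, which were in 4.14%, 7.71%, 1.85%, 0.652% and 0.0968% of all windows. HOXB2, HOXB3, HOXB8 and HOXB9 have no window among the 27, so their promoters were not searched. A match is a description of these letters only.

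The cells expressed most of the HOX genes, with HOXB9 highest. Levels are compared between genes as CPM divided by the deposited gene length in kilobases, averaged over the 8 group means. HOXB9, a thoracic gene, was highest at 41.8 CPM per kilobase. It was followed by HOXD10 at 24.3, HOXB2 at 24.1, HOXA10 at 23.1, HOXB7 at 22.8, HOXA5 at 19.7, HOXA9 at 16.9, HOXD9 at 15.4 and HOXC9, the highest of its cluster, at 15.1. Among the first 5, HOXB2 is the 1 anterior gene, known from the hindbrain. Neighbours in this order from HOXD10 to HOXB7 lay within 10% of each other, and the ranges of their group means overlapped (20.2 to 31.6 for HOXD10 and 21.5 to 25 for HOXB7).

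By paralog number, the 4 genes numbered 9 summed to 89.1 CPM per kilobase and the 3 numbered 10 to 49.3, the highest of the 13 paralog groups. The 2 genes numbered 12 summed to 0.305, the lowest. Altogether 32 of 39 genes averaged at least 1 CPM per kilobase, and the median over the 37 that passed the filter was 5.58, against 3.88 over all genes that passed it. The low ones were HOXD1 (0.679), HOXC11 (0.514), HOXD12 (0.277), HOXC5 (0.166) and HOXD3 (0.138), and HOXC12 and HOXB1, which did not pass the filter and had at most 8 and 2 counts in a library. HOXC5, HOXD3, HOXD4 and HOXD1 share 59.9%, 74.1%, 80.5% and 58.1% of their exon bases with other annotated genes. HOXA7 shares 62.5%, all of it with HOXA-AS3 on the opposite strand. Strand use in counting is not given in the sources used here, so the levels and changes of these genes are uncertain.

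**Figure D1:**
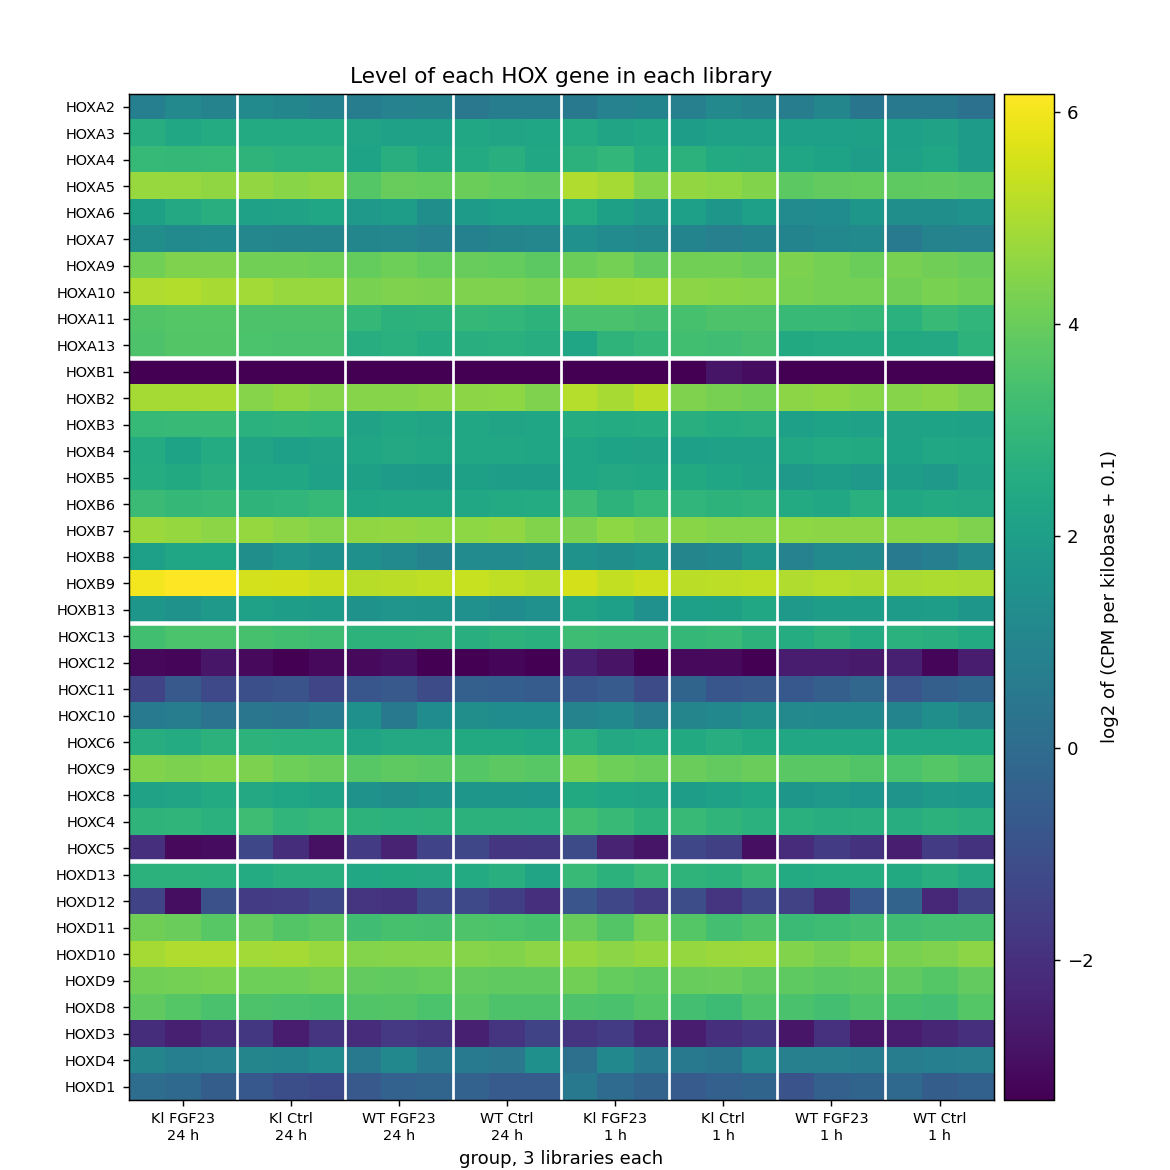
Each row is a HOX gene in chromosome order, each column a library in its group, and colour gives log2 of (CPM per kilobase + 0.1), with white lines between clusters and groups. HOXB9 is the brightest row in every group, and HOXB1 and HOXC12 are near the bottom of the scale throughout.

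Some HOX genes of each of the 4 clusters, fewest in HOXD, were more abundant in Kl than in WT cells without FGF23. At 24 h 17 of the 37 genes tested were higher in Kl and 1, HOXC10, was lower, at an adjusted p under 0.05 over all 17790 genes by edgeR's quasi-likelihood test. Of all genes tested in that comparison, 11.5% were called higher and 12% lower. At 1 h, in other libraries, 15 of 37 were higher and none lower, against 7.43% and 8.55% of all genes. Called higher at 24 h and 1 h were 6 and 7 of 11 tested in HOXA and 4 and 3 of 9 in HOXB. In HOXC they were 5 and 3 of 8, and in HOXD 2 and 2 of 9. At an unadjusted p under 0.05, 24 of 37 passed at 24 h and 21 at 1 h, against 6106 and 4952 of all 17790 genes. The median log2 fold change over the 37 was 0.26 at 24 h and 0.32 at 1 h, while the median over all genes was -0.01 at 24 h and 0.00 at 1 h. In bulk RNA, a difference in the share of cells that express a gene and a difference in RNA per cell cannot be told apart.

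A set of 12 genes was called in both untreated comparisons, all higher in Kl, among them HOXA5, HOXA10, HOXA11, HOXA13, HOXB3, HOXB6, HOXB9, HOXC8, HOXC9, HOXC13 and HOXD10. The line comparison in FGF23-treated cells uses other libraries again, and it called 23 of 37 higher and HOXC10 lower at 24 h (12.4% and 13.2% of all genes) and 19 of 37 higher and none lower at 1 h (10.5% and 9.98%). Of the 37, 11 were called in all 4 line comparisons, each time higher in Kl, and HOXA13 was not among these. The shares of all genes called in both untreated or in all 4 comparisons were not computed, so these counts only describe the HOX genes. The treated 1 h comparison draws on the most variable group, and with only its own 6 libraries in the fit it called 9 of 37, against 5.1% of all genes. The 10 genes called in none of the 4 were HOXA7, HOXB4, HOXB7, HOXC5, HOXC11, HOXD1, HOXD3, HOXD4, HOXD8 and HOXD12. HOXB7 and HOXB4 are expressed at 22.8 and 4.74 CPM per kilobase, so their counts were not low. HOXB7 differed by 0.02 at 24 h (95% interval -0.15 to 0.19) and by less than 0.01 at 1 h (95% interval -0.17 to 0.17) on the log2 scale.

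In HOXA, HOXA5, needed for the respiratory tract in mice, had 42.3, 38.3 and 41.1 CPM in Kl controls and 27.5, 25.9 and 24.4 CPM in WT controls at 24 h. Its 1 h values were 42.3, 39.8 and 35.2 CPM in Kl controls and 24.1, 24.2 and 23.4 CPM in WT controls. Neither pair overlapped, and the log2 fold changes were 0.65 ± 0.11 (adjusted p = 5.59e-05) at 24 h and 0.71 ± 0.11 (adjusted p = 2.47e-05) at 1 h, where ± is the SE. Treated libraries had 44.9, 44.2 and 41.2 CPM in Kl cells and 21.6, 26.5 and 26.1 CPM in WT cells at 24 h. They had 55.9, 50.3 and 36 CPM in Kl cells and 23, 25.1 and 25.8 CPM in WT cells at 1 h, and HOXA5 shares no exon base with another gene.

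The posterior HOXA genes were higher in Kl too. HOXA10, a gene of the uterus and leg and the highest of its cluster, had 106, 96.7 and 96.9 CPM in Kl controls and 73.6, 74.2 and 70.1 CPM in WT controls at 24 h. It had 85.1, 82.8 and 79.9 CPM in Kl controls and 63.4, 70.2 and 65 CPM in WT controls at 1 h. These groups did not overlap, at log2 fold changes of 0.46 ± 0.06 (adjusted p = 1.38e-06) at 24 h and 0.32 ± 0.06 (adjusted p = 3.11e-04) at 1 h. HOXA11, active in forelimb, uterus and kidney, had 26.3, 26 and 25.9 CPM in Kl controls and 18.3, 17.7 and 16 CPM in WT controls at 24 h. It had 24.5, 26.5 and 26.3 CPM in Kl controls and 15.3, 19.3 and 17.4 CPM in WT controls at 1 h. Every Kl control exceeded every WT control, at 0.59 ± 0.09 (adjusted p = 9.48e-06) at 24 h and 0.57 ± 0.09 (adjusted p = 1.74e-05) at 1 h. HOXA11 had 27.3, 29 and 29.4 CPM in Kl cells and 18.4, 15.6 and 16.1 CPM in WT cells after 24 h of FGF23. After 1 h of FGF23 it had 24.7, 24.9 and 23.5 CPM in Kl cells and 19, 19.4 and 18.4 CPM in WT cells, and neither treated pair overlapped. HOXA13, mutated in hand-foot-genital syndrome, had 55.9, 54.8 and 54.8 CPM in Kl controls and 32, 32.5 and 30.0 CPM in WT controls at 24 h. It had 49.1, 48.1 and 52.7 CPM in Kl controls and 27.1, 26.1 and 35.6 CPM in WT controls at 1 h. There was no overlap, at 0.81 ± 0.12 (adjusted p = 8.53e-06) at 24 h and 0.76 ± 0.12 (adjusted p = 2.67e-05) at 1 h. After 24 h of FGF23 it had 57.3, 63 and 62.3 CPM in Kl cells and 29.8, 32.7 and 29.3 CPM in WT cells, also apart. HOXA10 and HOXA13 with 1 h of FGF23 are described further on. The noncoding HOXA11-AS covers 31.1% of the exon bases of HOXA11 from the other strand, so reads of the pair may be mixed.

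Other HOXA genes were called in fewer comparisons. HOXA9, a blood progenitor and leukaemia gene, was called at 24 h without FGF23, at 0.23 ± 0.08 (adjusted p = 0.0415), a call lost when any of the 6 libraries was left out, and with FGF23 at 24 h, at 0.30 ± 0.08 (adjusted p = 0.00746), and its log2 difference at 1 h without FGF23 was -0.02. HOXA2, a patterning gene of the second branchial arch, was called at 1 h without FGF23, at 0.58 ± 0.18 (adjusted p = 0.0255), but lost that call without the first or the third WT control or the second Kl control. HOXA4 was called at 1 h without FGF23, at 0.45 ± 0.13 (adjusted p = 0.0218), and in both treated comparisons, and the first of these calls was lost without the first or the third WT control or the first Kl control. HOXA3 and HOXA6 were called in the treated comparisons alone, HOXA3 at 0.34 and 0.30 and HOXA6 at 0.65 and 0.71 at 24 h and 1 h. Part of the exon bases of HOXA4, HOXA6, HOXA9 and HOXA10 (47.3%, 40.1%, 27.0% and 26.3%) is shared with other annotated genes.

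In HOXB the 3 genes called in both untreated comparisons were interspersed with genes that were not. HOXB3, a hindbrain gene, had 48.7, 51.2 and 48.7 CPM in Kl controls and 36.9, 34.3 and 34.8 CPM in WT controls at 24 h. It had 46, 42.7 and 43.9 CPM in Kl controls and 32, 33.4 and 31.2 CPM in WT controls at 1 h. Kl and WT did not overlap, at log2 fold changes of 0.49 ± 0.07 (adjusted p = 4.97e-06) at 24 h and 0.45 ± 0.07 (adjusted p = 2.05e-05) at 1 h. HOXB6, a trunk gene, had 18.6, 19.6 and 20.9 CPM in Kl controls and 12.7, 14.4 and 14.8 CPM in WT controls at 24 h. It had 19.7, 17.9 and 19.1 CPM in Kl controls and 13.2, 14.2 and 13.6 CPM in WT controls at 1 h. These did not overlap either, at 0.49 ± 0.10 (adjusted p = 7.68e-04) at 24 h and 0.47 ± 0.10 (adjusted p = 0.00175) at 1 h. HOXB6 had 23.1, 20.4 and 21.5 CPM in Kl cells and 12.5, 12.8 and 13.2 CPM in WT cells after 24 h of FGF23. After 1 h of FGF23 it had 24, 17.8 and 21.2 CPM in Kl cells and 14.2, 12.9 and 16.7 CPM in WT cells, with every Kl library above every WT library. Part of its exons (32.9%) is shared with HOXB3 and HOXB-AS3. HOXB9 had 119, 121 and 110.1 CPM in Kl controls and 107, 98.1 and 91.2 CPM in WT controls at 24 h. It had 93.8, 97 and 97.5 CPM in Kl controls and 80.3, 81.6 and 80.8 CPM in WT controls at 1 h. The lines did not overlap, at the smaller log2 fold changes of 0.24 ± 0.07 (adjusted p = 0.00844) at 24 h and 0.25 ± 0.07 (adjusted p = 0.0105) at 1 h, and without the third WT control library at 24 h the adjusted p was 0.0992. HOXB13, a prostate gene, was called at 24 h without FGF23 alone, at 0.59 ± 0.14 (adjusted p = 0.00248). HOXB2, HOXB5 and HOXB8 were called in treated comparisons, HOXB2 and HOXB5 at both times and HOXB8 at 24 h.

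In HOXC the calls went both ways. HOXC13, which acts in hair and nail, had 25.6, 23.3 and 22.2 CPM in Kl controls and 14.8, 17 and 15.6 CPM in WT controls at 24 h. It had 19.1, 20.3 and 16.6 CPM in Kl controls and 15.8, 14.9 and 13.3 CPM in WT controls at 1 h. No Kl control fell within the WT range, at log2 fold changes of 0.58 ± 0.09 (adjusted p = 2.92e-05) at 24 h and 0.34 ± 0.10 (adjusted p = 0.0122) at 1 h. The 1 h call was lost without the third WT control (adjusted p = 0.0723) or the second Kl control (adjusted p = 0.0924). With FGF23, HOXC13 had 23.6, 27 and 27.1 CPM in Kl cells and 17, 16.9 and 17.4 CPM in WT cells at 24 h. It had 22.2, 21.4 and 21.3 CPM in Kl cells and 14.1, 16.2 and 13.7 CPM in WT cells at 1 h, and the treated lines did not overlap. HOXC9, which assigns thoracic motor neurons, had 33, 27.9 and 26.2 CPM in Kl controls and 21.2, 22.8 and 21.5 CPM in WT controls at 24 h. It had 26.5, 24.6 and 26.6 CPM in Kl controls and 18.7, 21 and 18.2 CPM in WT controls at 1 h. The groups were apart, at 0.41 ± 0.09 (adjusted p = 0.00110) at 24 h and 0.42 ± 0.09 (adjusted p = 0.00133) at 1 h. HOXC9 in treated libraries had 34.8, 32.5 and 34.2 CPM in Kl cells and 21.6, 23.5 and 22.2 CPM in WT cells at 24 h. It had 31.8, 28.4 and 25.7 CPM in Kl cells and 22.1, 22.4 and 20.0 CPM in WT cells at 1 h, apart as well.

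HOXC8, a thoracic gene that shares no exon base with another gene, had 9.79, 8.88 and 8.22 CPM in Kl controls and 5.91, 5.98 and 5.75 CPM in WT controls at 24 h. It had 7.15, 8.04 and 8.91 CPM in Kl controls and 5.49, 6.33 and 6.09 CPM in WT controls at 1 h. It did not overlap between lines, at log2 fold changes of 0.61 ± 0.12 (adjusted p = 5.54e-04) at 24 h and 0.43 ± 0.12 (adjusted p = 0.0150) at 1 h. The 1 h call was lost without the first WT control (adjusted p = 0.0893) or the third Kl control (adjusted p = 0.0970). HOXC8 after FGF23 had 8.24, 8.58 and 10.4 CPM in Kl cells and 5.42, 4.63 and 5.25 CPM in WT cells at 24 h. After 1 h it had 10.2, 8.81 and 8.59 CPM in Kl cells and 6.02, 6.41 and 5.81 CPM in WT cells, without overlap. HOXC10, a gene of lumbar motor neurons, went the other way at 24 h, where it had 2.83, 2.63 and 3.23 CPM in Kl controls and 5.75, 5.47 and 5.55 CPM in WT controls. At 1 h it had 4.48, 4.80 and 5.75 CPM in Kl controls and 4.35, 5.97 and 4.46 CPM in WT controls. Its log2 fold change was -0.95 ± 0.20 (adjusted p = 7.06e-04) at 24 h, with all Kl libraries below all WT libraries, and 0.02 ± 0.18 at 1 h, where the lines overlapped. HOXC4 was called at 24 h without FGF23 (0.31 ± 0.10) and at 1 h with it (0.42 ± 0.10), and the 24 h call was lost in 5 of the 6 fits that left out 1 library. HOXC6 was called at 24 h without FGF23 (0.34 ± 0.09) and with it (0.30 ± 0.09). HOXC4 shares 17.8% of its exon bases with HOXC5 and HOXC6, and reads may have been split between them.

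In HOXD, HOXD10, the highest of its cluster and a gene of lumbar motor neurons, was the 1 called in both untreated comparisons. It had 76.7, 79 and 69.8 CPM in Kl controls and 57.8, 55.7 and 60.8 CPM in WT controls at 24 h. It had 68.5, 72.3 and 72.8 CPM in Kl controls and 51, 54.4 and 60.9 CPM in WT controls at 1 h. The lines did not overlap, at log2 fold changes of 0.37 ± 0.07 (adjusted p = 3.43e-04) at 24 h and 0.36 ± 0.07 (adjusted p = 5.95e-04) at 1 h. With FGF23, HOXD10 had 79.3, 88.3 and 87.7 CPM in Kl cells and 56.6, 58.9 and 58.8 CPM in WT cells at 24 h. It had 68.9, 61.6 and 69 CPM in Kl cells and 55.3, 50.1 and 57.3 CPM in WT cells at 1 h, and every Kl library stayed above every WT library. HOXD9 was called at 24 h without FGF23, at 0.26 ± 0.08 (adjusted p = 0.0200), and was lost there without the second or the third WT control or the third Kl control. HOXD13, mutated in synpolydactyly, was called at 1 h without FGF23, at 0.40 ± 0.11 (adjusted p = 0.0118), and was lost there without the first or the third WT control or the third Kl control. Both were also called with FGF23, HOXD9 at 24 h and HOXD13 at each time. HOXD11 was called in both treated comparisons, at 0.59 ± 0.11 (adjusted p = 2.37e-04) at 24 h and 0.70 ± 0.11 (adjusted p = 3.71e-05) at 1 h, and 21.4% of its exon bases are shared with HOXD10.

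**Figure D2:**
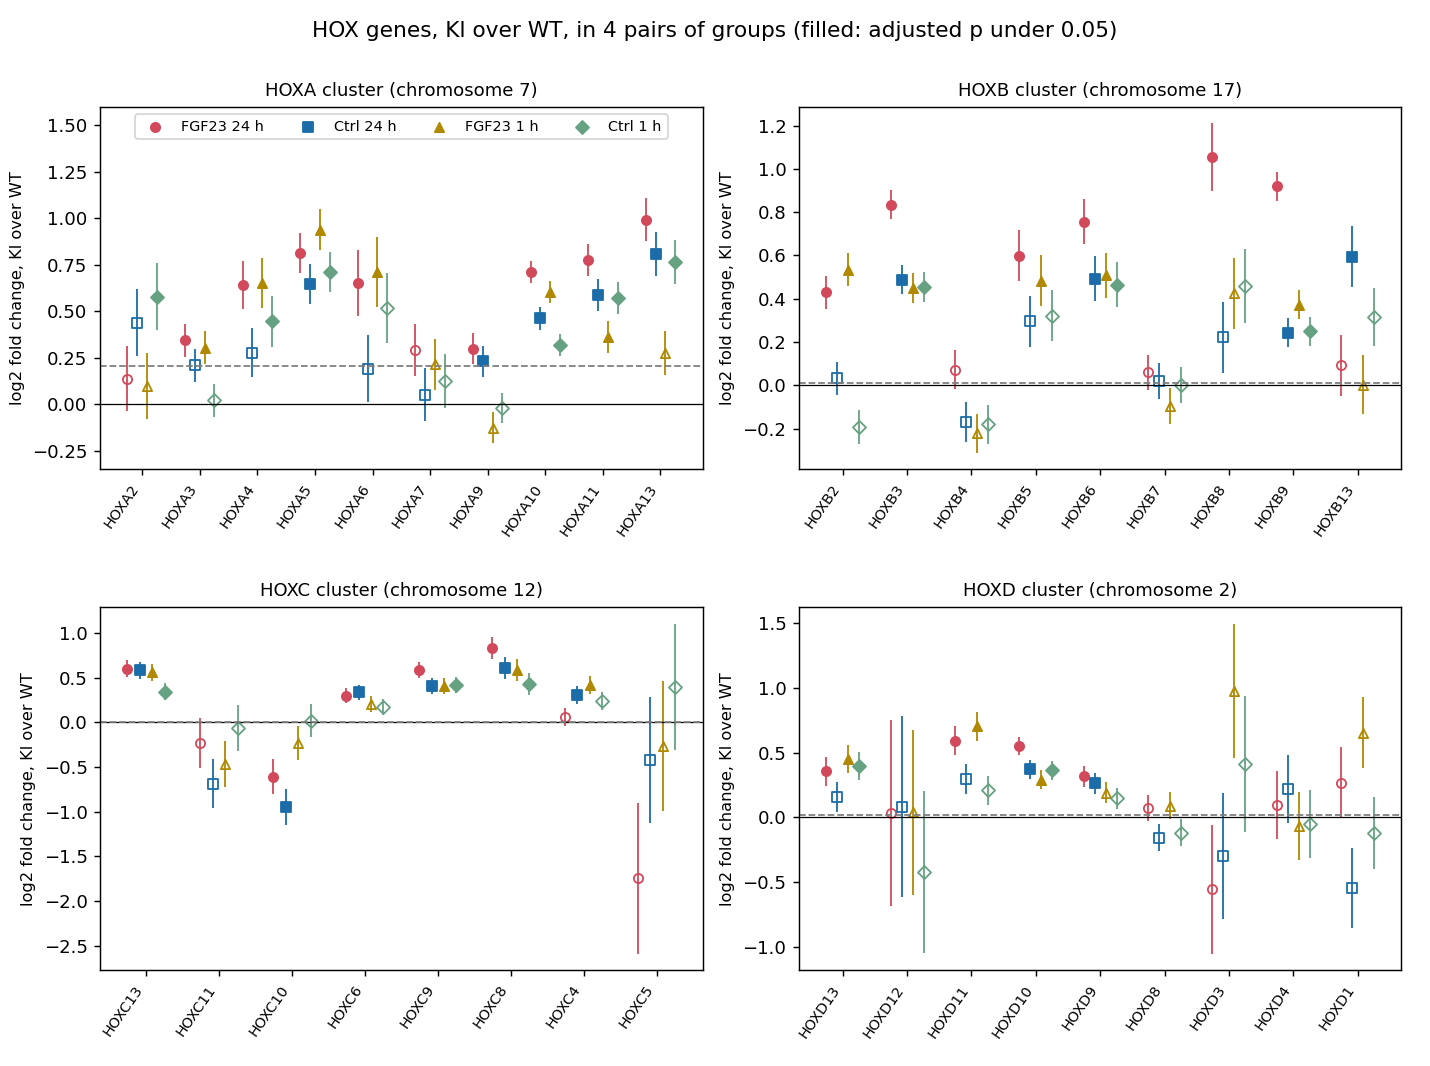
Each panel is a cluster and gives the log2 fold change of Kl over WT with its SE for genes that passed the filter, in chromosome order. Filled points are genes at an adjusted p under 0.05, and the dashed line is the median of the other genes of that chromosome in the untreated 24 h comparison. Filled points lie above 0 in all 4 clusters, apart from HOXC10 at 24 h.

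The clusters differ in what surrounds them. HOXA lies on chromosome 7, where the other 869 genes tested had a median log2 fold change of 0.20 at 24 h and 0.21 at 1 h for Kl over WT, and 32.0% at 24 h and 29.1% at 1 h were called higher. The HOXA genes themselves had medians of 0.44 at 24 h and 0.52 at 1 h. The chromosomes of the other clusters had medians within 0.02 of 0 in both untreated comparisons, while HOXB had 0.24 and 0.32, HOXC 0.32 and 0.29, and HOXD 0.16 and 0.15 at 24 h and 1 h. These medians are descriptions, with no test between clusters. Of the 20 nearest tested protein-coding genes around HOXA, 10 on each side, 11 were higher in Kl and none lower at each time, with medians of 0.30 at 24 h and 0.26 at 1 h. Among them were CYCS (0.53 at 24 h and 0.34 at 1 h), which encodes cytochrome c, HIBADH (0.56 and 0.62), a mitochondrial enzyme of valine breakdown, and SKAP2 (0.42 and 0.55). The part that the chromosome has in the HOXA difference was not tested. Around HOXB, HOXC and HOXD the 20 neighbours of each had medians of 0.02, 0.09 and 0.04 at 24 h, and 5, 4 and 2 of them were called higher and 4, 3 and 1 lower. The shares over all genes in that comparison were 11.5% higher and 12% lower.

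**Figure D3:**
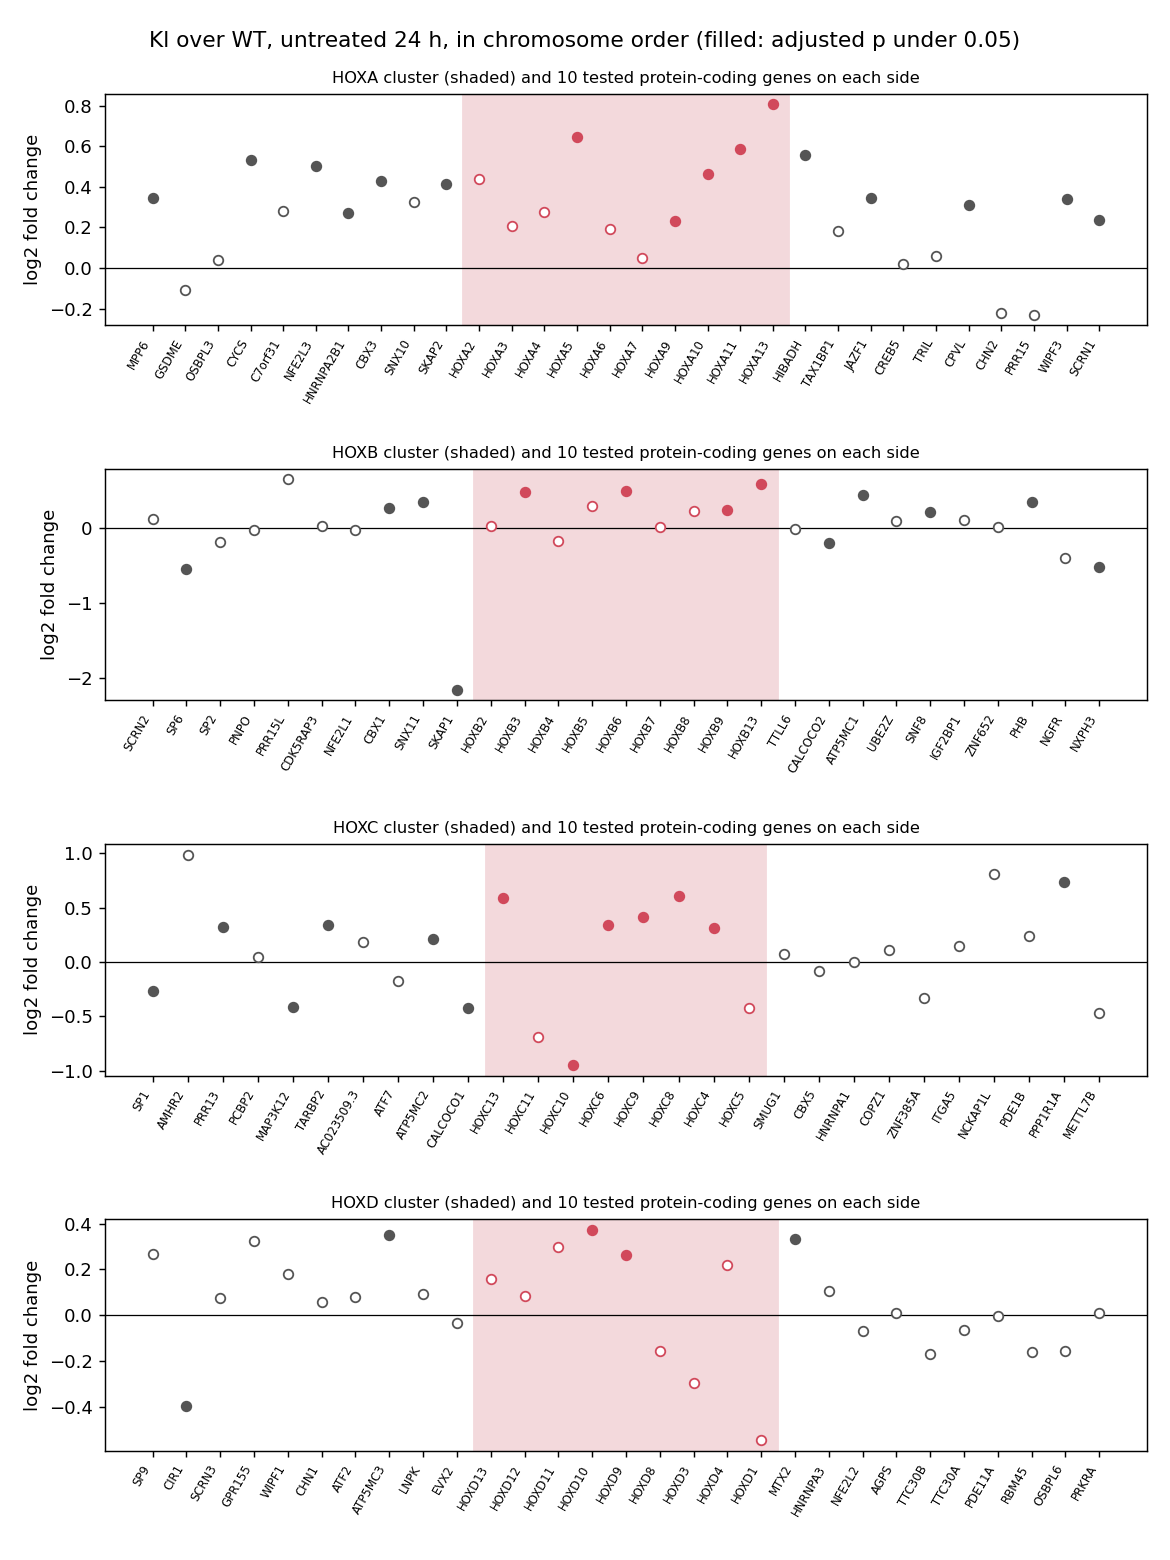
Points give the log2 fold change of Kl over WT in untreated 24 h libraries for genes of each cluster (shaded) and the 10 nearest tested protein-coding genes on each side, in chromosome order, with filled points at an adjusted p under 0.05. The vertical scale differs between panels. Filled points are frequent on both sides of HOXA and, for HOXB, HOXC and HOXD, lie on both sides of 0 outside the shading.

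Other annotated genes inside the span of each cluster were read as well. Over all genes tested, 11.5% were called higher and 12% lower at 24 h, and 7.43% and 8.55% at 1 h. In HOXA 5 of 6 tested were higher in Kl at each time, among them HOTAIRM1 (0.86 at 24 h and 0.64 at 1 h), a noncoding RNA, HOXA-AS2 (0.51 and 0.73), HOXA11-AS (0.79 and 0.54) and HOXA-AS3 (0.86 and 1.04). In HOXB 1 of 7 tested was higher and 3 were lower at 24 h, and 1 was higher and 2 lower at 1 h. HOXB-AS3 was higher (0.92 and 1.07), and HOXB-AS1, which lies between HOXB2 and HOXB3, was lower (-0.63 and -0.66). The noncoding RNA AC103702.2 was lower at both times (-0.32 and -0.34), and LINC02086 was lower at 24 h (-0.66). In HOXC none of 4 was called at 24 h and 1 of 4 at 1 h, and in HOXD 1 of 4 at 24 h and none at 1 h.

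Genes that act with or upon the clusters were examined as lists, with log2 fold changes of Kl over WT given at 24 h first and 1 h second where a gene was called at both. Against these counts, 11.5% of all genes were called higher and 12% lower at 24 h, and 7.43% and 8.55% at 1 h. The counts describe each list, and no list was tested as a set. Of 9 TALE cofactors, PBX2 was higher (0.43 and 0.33) and PBX3 lower (-0.23 and -0.33) at both times, and MEIS2 was higher at 24 h. Of 25 Polycomb genes 3 were higher and 1 lower at 24 h, and 1 was higher and 3 lower at 1 h. PHF1 was higher at both times (0.24 and 0.25) and PHF19 lower (-0.46 and -0.33), and both encode accessory subunits of Polycomb repressive complex 2. The others called were RNF2 and CBX2, higher at 24 h, and RBBP7 and CBX6, lower at 1 h. Of 16 MLL and trithorax genes none was higher and 3 were lower at each time. PSIP1, which tethers MLL to chromatin, was lower at both (-0.38 and -0.29), as was WDR5 (-0.17 and -0.22), with KMT2A, the MLL gene itself, lower at 24 h and MLLT3 lower at 1 h.

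Of 15 tested retinoid and CDX genes 4 were higher and 3 lower at 24 h, and 4 were higher and 1 lower at 1 h. The shares over all genes were 11.5% and 12% at 24 h, and 7.43% and 8.55% at 1 h. RARB, a retinoic acid receptor and target, was higher at both times (0.77 and 0.86), as were CDX2 (0.53 and 0.54), a homeobox activator of the clusters, and ALDH1A2 (0.30 and 0.32), which makes retinoic acid. RXRA, the partner of retinoic acid receptors, was lower at both (-0.34 and -0.39). RXRB was higher and ALDH1A3 and CRABP2 lower at 24 h, and ALDH1A1 was higher at 1 h. Of 11 chromatin architecture genes GMNN was higher at both (0.41 and 0.27), and CTCF and NIPBL were lower at 24 h. These genes are named by rule where they were called at both times; those called at 1 time were named after their values were seen. The median log2 fold change of the 5 lists ran from -0.07 to 0.15 over both times.

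Markers of cell identity moved with the line too. Of 11 tested kidney epithelial markers 5 were lower in Kl at 24 h and 4 at 1 h, while LRP2, a tubule endocytic receptor, was higher at 1 h. Over all genes, 12% were lower at 24 h and 8.55% at 1 h, and 11.5% and 7.43% were higher. The summed level of the list was 591 to 672 CPM in Kl controls and 911 to 1124 CPM in WT controls. The keratin gene KRT19 (-1.73 at 24 h and -1.31 at 1 h) and the adhesion gene EPCAM (-1.04 and -0.85) had the smallest p among them. Of 10 tested neuronal and adrenal markers 6 at 24 h and 5 at 1 h were lower and NEFH was higher at each time, with summed levels of 280.3 to 337 CPM in Kl controls and 346 to 379 CPM in WT controls. NEFM, a neurofilament gene, was lower, at -2.10 and -1.38. Fibroblast and endothelial markers summed to 15 to 22.1 CPM in Kl controls and 23.6 to 29 CPM in WT controls, with COL3A1 and LUM called higher and COL1A1 lower at 24 h and COL3A1 higher and COL1A1 lower at 1 h. Blood markers, of which 1 of 8 was tested and none called, summed to 0.871 to 2.23 CPM in Kl controls and 1.30 to 1.88 CPM in WT controls. COL1A2, DCN, PECAM1, CDH5, PTPRC and STMN2 had at most 3 counts in any library. The part of these markers in the HOX difference was not tested.

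FGF23 for 24 h raised 6 HOX genes in Kl cells, 4 of them in HOXB, and called none in WT cells. In Kl cells 6 of 37 were higher and none lower, against 4.91% of all genes higher and 3.66% lower. HOXB9 had 167, 186 and 181 CPM in FGF23-treated Kl cells and 119, 121 and 110.1 CPM in Kl controls. WT cells had 91.4, 93.5 and 97.6 CPM with FGF23 and 107, 98.1 and 91.2 CPM in Ctrl. The Kl groups did not overlap and the WT groups did, and the log2 fold change was 0.61 ± 0.07 (adjusted p = 1.03e-07) in Kl and -0.07 ± 0.07 in WT (95% interval -0.21 to 0.07). HOXB8, known for its role in blood progenitors and microglia of mice, had 8.29, 9.60 and 9.95 CPM in FGF23-treated Kl cells and 5.21, 6.19 and 5.42 CPM in Kl controls. WT cells had 5.37, 4.41 and 3.69 CPM with FGF23 and 4.64, 4.71 and 5.05 CPM in Ctrl. Every treated Kl library was above every Kl control, at 0.73 ± 0.16 (adjusted p = 0.00208) in Kl and -0.10 ± 0.17 in WT (95% interval -0.44 to 0.24). HOXB8 and HOXB9 share no exon base with another annotated gene.

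HOXB2, a hindbrain gene, had 69.1, 68.9 and 70.1 CPM in FGF23-treated Kl cells and 51.2, 56.3 and 50.5 CPM in Kl controls. In WT cells it had 50.4, 50.2 and 53.9 CPM with FGF23 and 53.5, 54.1 and 46.8 CPM in Ctrl. Only the Kl groups were apart, at 0.40 ± 0.08 (adjusted p = 7.03e-04) in Kl and 0.00 ± 0.08 in WT (95% interval -0.16 to 0.16). Its neighbour HOXB3 had 60.1, 63.1 and 63.8 CPM in FGF23-treated Kl cells and 48.7, 51.2 and 48.7 CPM in Kl controls. WT cells had 32.4, 38.2 and 34.2 CPM with FGF23 and 36.9, 34.3 and 34.8 CPM in Ctrl. Again the Kl groups did not overlap, at 0.33 ± 0.07 (adjusted p = 0.00124) in Kl and -0.01 ± 0.07 in WT (95% interval -0.16 to 0.13). HOXA10 had 120.4, 125 and 111 CPM in FGF23-treated Kl cells and 106, 96.7 and 96.9 CPM in Kl controls. WT cells had 70.9, 73.9 and 73.1 CPM with FGF23 and 73.6, 74.2 and 70.1 CPM in Ctrl. The treated Kl libraries lay above the Kl controls by a smaller margin, at 0.25 ± 0.06 (adjusted p = 0.00620) in Kl and 0.00 ± 0.06 in WT, and without the second treated Kl library the adjusted p was 0.0618. HOXD1, which acts in pain-sensing neurons of mice, had 1.87, 1.69 and 1.18 CPM in FGF23-treated Kl cells and 1.02, 0.750 and 0.670 CPM in Kl controls. WT cells had 1.04, 1.36 and 1.51 CPM with FGF23 and 1.38, 1.12 and 1.10 CPM in Ctrl. The Kl groups did not overlap at these low levels, at 0.94 ± 0.30 (adjusted p = 0.0457) in Kl and 0.13 ± 0.29 in WT. HOXD1 lost its call in 5 of the 6 comparisons that left out 1 library, and its antisense partner HAGLR, which covers much of its exons, was also called higher, at 0.43 (adjusted p = 5.43e-04), and was named after its values were seen.

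The rest of HOXB did not pass the test at 24 h in Kl cells. HOXB4, HOXB5, HOXB6 and HOXB7 had log2 fold changes of 0.28, 0.24, 0.14 and 0.11, and HOXB13, which lies apart from the others, had -0.33 with all treated libraries below all controls. When only the 6 libraries compared entered the fit, 10 HOX genes were called, with HOXB4 and HOXD10 added to those higher and HOXB13 and HOXC4 to those lower, against 19.3% of all genes, and limma with a spread per group called 11, against 17.9%. The summed level of the 10 HOXB genes was 421 ± 7.42 CPM in treated Kl cells, 319 ± 12 CPM in Kl controls, 271 ± 5.63 CPM in treated WT cells and 274 ± 13.8 CPM in WT controls (SD, n = 3 each).

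**Figure D4:**
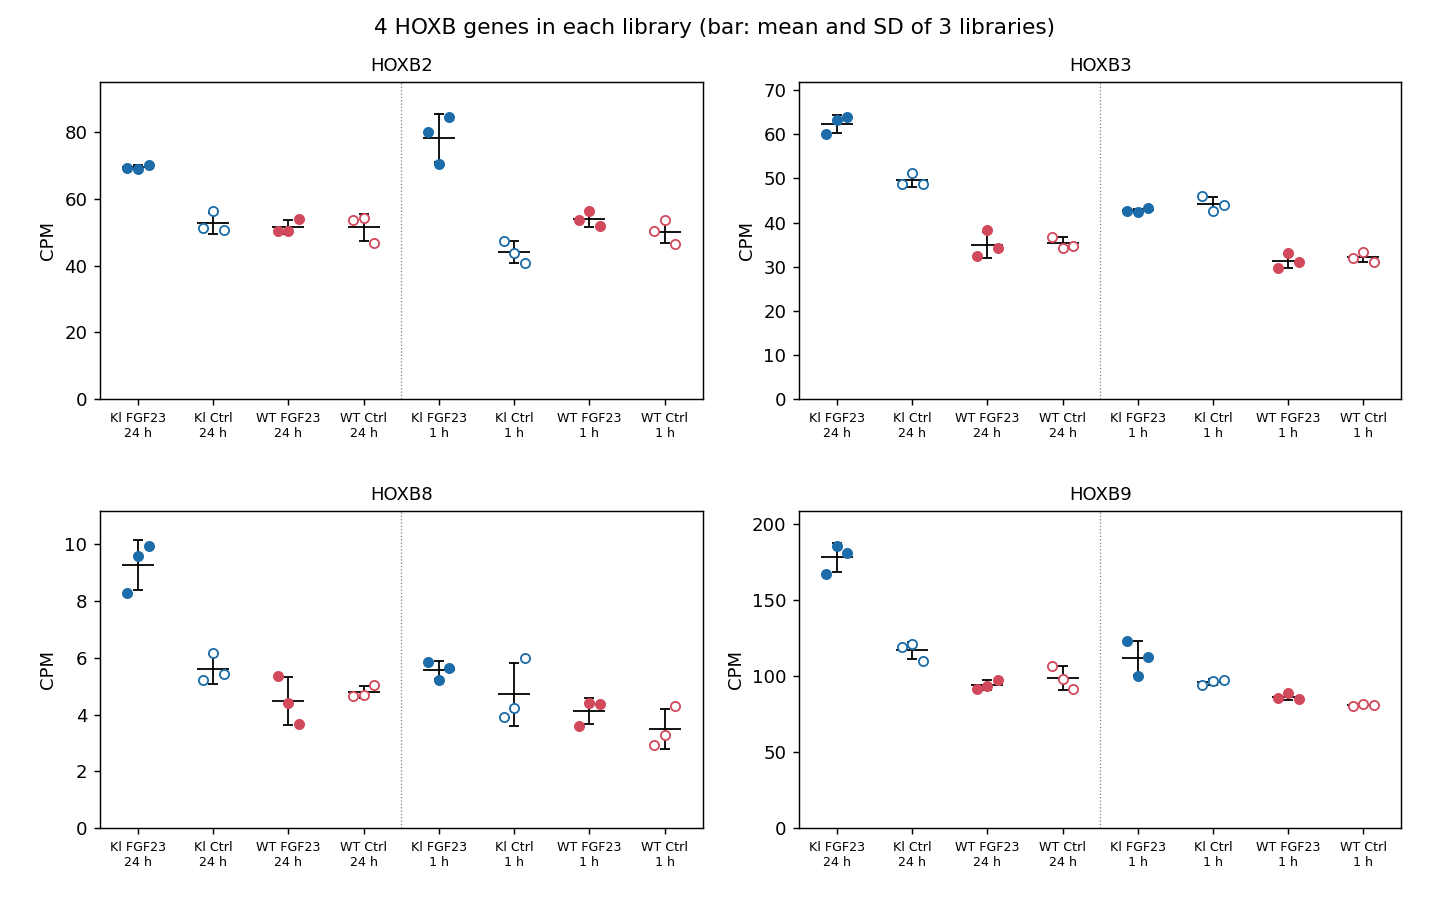
CPM of HOXB2, HOXB3, HOXB8 and HOXB9 in every library, with Kl in blue and WT in red, FGF23 as filled and Ctrl as open circles, and bars for the mean and SD of 3 libraries. At 24 h the treated Kl libraries lie above the other 3 groups for all 4 genes, and at 1 h they do so for HOXB2 and HOXB9.

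At 1 h FGF23 changed 5 HOX genes in Kl cells, in both directions, and HOXB2 stood out from the rest. There 4 of 37 were higher and 1 lower, against 3.9% of all genes higher and 0.933% lower. HOXB2 had 80.0, 70.3 and 84.3 CPM in FGF23-treated Kl cells and 47.3, 43.8 and 40.9 CPM in Kl controls. WT cells had 53.6, 56.4 and 51.8 CPM with FGF23 and 50.3, 53.5 and 46.6 CPM in Ctrl. The Kl groups were far apart, at 0.83 ± 0.08 (adjusted p = 6.80e-09) in Kl and 0.10 ± 0.08 in WT (95% interval -0.05 to 0.26). HOXB2 was the only 1 of the 5 still called when just the 6 libraries compared entered the fit, at an adjusted p of 0.00404 by edgeR, in a fit that called 0.554% of all genes. HOXB9, HOXB3 and HOXB8 were not called at 1 h in Kl, at 0.22 ± 0.07, -0.05 ± 0.07 and 0.23 ± 0.16. HOXB3 had 42.7, 42.4 and 43.2 CPM in FGF23-treated Kl cells and 46, 42.7 and 43.9 CPM in Kl controls at 1 h. WT cells had 29.8, 33.1 and 31.1 CPM with FGF23 and 32, 33.4 and 31.2 CPM in Ctrl, with overlap in both lines. HOXB8 had 5.85, 5.21 and 5.66 CPM in FGF23-treated Kl cells and 3.92, 4.24 and 5.98 CPM in Kl controls at 1 h. WT cells had 3.59, 4.40 and 4.38 CPM with FGF23 and 2.94, 3.27 and 4.29 CPM in Ctrl, so treated and control libraries overlapped in both lines. HOXB9 had 123, 100.2 and 112 CPM in FGF23-treated Kl cells and 93.8, 97 and 97.5 CPM in Kl controls at 1 h. WT cells had 85.3, 88.9 and 84.6 CPM with FGF23 and 80.3, 81.6 and 80.8 CPM in Ctrl. For HOXB9 the treated libraries were above the controls without overlap in both lines. Since the 2 treatments differ in dose and duration and were set against different controls, the 1 h and 24 h values stand side by side only.

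The other 4 calls at 1 h rest on the most variable group. HOXA13 had 24.2, 36.4 and 40.5 CPM in FGF23-treated Kl cells and 49.1, 48.1 and 52.7 CPM in Kl controls. WT cells had 27, 28.3 and 28.9 CPM with FGF23 and 27.1, 26.1 and 35.6 CPM in Ctrl. All 3 treated Kl libraries were below the Kl controls, but they spread widely, at -0.55 ± 0.12 (adjusted p = 0.00356) in Kl and -0.07 ± 0.12 in WT, and with only the 6 libraries compared the adjusted p was 0.285. HOTTIP, the noncoding RNA beside HOXA13 that helps to keep posterior HOXA genes active, was also lower in Kl, at -0.90 (adjusted p = 0.0317). It was chosen after its values were seen and had only 10 to 49 counts in a library. HOTTIP did not pass the test of the difference between the lines, at -1.09 (adjusted p = 0.259), and a link to HOXA13 was not tested. HOXA10 had 103, 104 and 106 CPM in FGF23-treated Kl cells and 85.1, 82.8 and 79.9 CPM in Kl controls. WT cells had 70.8, 67.4 and 67.4 CPM with FGF23 and 63.4, 70.2 and 65 CPM in Ctrl. The treated Kl libraries did not overlap their controls, at 0.33 ± 0.06 (adjusted p = 5.49e-04) in Kl and 0.05 ± 0.06 in WT, with an adjusted p of 0.295 with only the 6 libraries compared.

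HOXA3, which acts in the thymus and parathyroid, had 24.3, 19.6 and 21.2 CPM in FGF23-treated Kl cells and 16.3, 17.9 and 18.2 CPM in Kl controls. WT cells had 17.2, 17.3 and 17.9 CPM with FGF23 and 17.2, 18.5 and 15.9 CPM in Ctrl. The Kl groups were apart, at 0.30 ± 0.09 (adjusted p = 0.0430) in Kl and 0.02 ± 0.09 in WT. HOXA3 was lost without any 1 of the 3 Kl controls or the first treated library, and with the replicate number as a block, at an adjusted p of 0.0501. With only the 6 libraries compared its adjusted p was 0.585, and it kept its call in 5 of 16 alternatives, with adjusted p of 0.00651 to 0.634. At 24 h it had 25.2, 21.6 and 24.4 CPM in FGF23-treated Kl cells and 23.6, 23.6 and 23.4 CPM in Kl controls. WT cells at 24 h had 19.5, 18.2 and 18.2 CPM with FGF23 and 21.4, 19.5 and 20.3 CPM in Ctrl, and neither line was called. HOXD11, a forelimb and kidney gene, had 32.5, 26.1 and 38 CPM in FGF23-treated Kl cells and 26.6, 21.3 and 24.1 CPM in Kl controls. WT cells had 18.5, 19.5 and 21.1 CPM with FGF23 and 19.9, 21.1 and 21.3 CPM in Ctrl. The Kl groups overlapped, at 0.42 ± 0.11 (adjusted p = 0.0252) in Kl and -0.07 ± 0.12 in WT, and HOXD11 was lost without the second or the third Kl control or the third treated library. With only the 6 libraries compared its adjusted p was 0.462, and it kept its call in 9 of 16 alternatives, with adjusted p of 5.38e-04 to 0.462. At 24 h it had 36.2, 33.6 and 27.3 CPM in FGF23-treated Kl cells and 31.1, 25.7 and 29.1 CPM in Kl controls. WT cells at 24 h had 20.3, 22.4 and 21.6 CPM with FGF23 and 24.5, 23.3 and 22.2 CPM in Ctrl, with no call in either line. HOXD1 at 1 h had 2.64, 1.78 and 1.40 CPM in FGF23-treated Kl cells and 1.12, 1.28 and 1.47 CPM in Kl controls. WT cells had 0.869, 1.28 and 1.43 CPM with FGF23 and 1.67, 1.19 and 1.33 CPM in Ctrl, and all these groups overlapped.

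In WT cells FGF23 called no HOX gene and no gene at all at either time by edgeR (0% of 17790). At an unadjusted p under 0.05, 541 genes and 0 HOX genes passed at 24 h, and 404 genes and 1 HOX gene at 1 h. DESeq2 called none at either time, and limma with a spread per group called 0 genes at 1 h and 2 (0.0112%) at 24 h, none of them a HOX gene. With only the 6 libraries compared, edgeR called 111 genes (0.666%) at 24 h and 0 at 1 h, again with no HOX gene among them. The log2 fold changes of the 37 HOX genes had medians of -0.05 at 24 h and 0.03 at 1 h in WT, and 0.14 at each time in Kl.

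**Figure D5:**
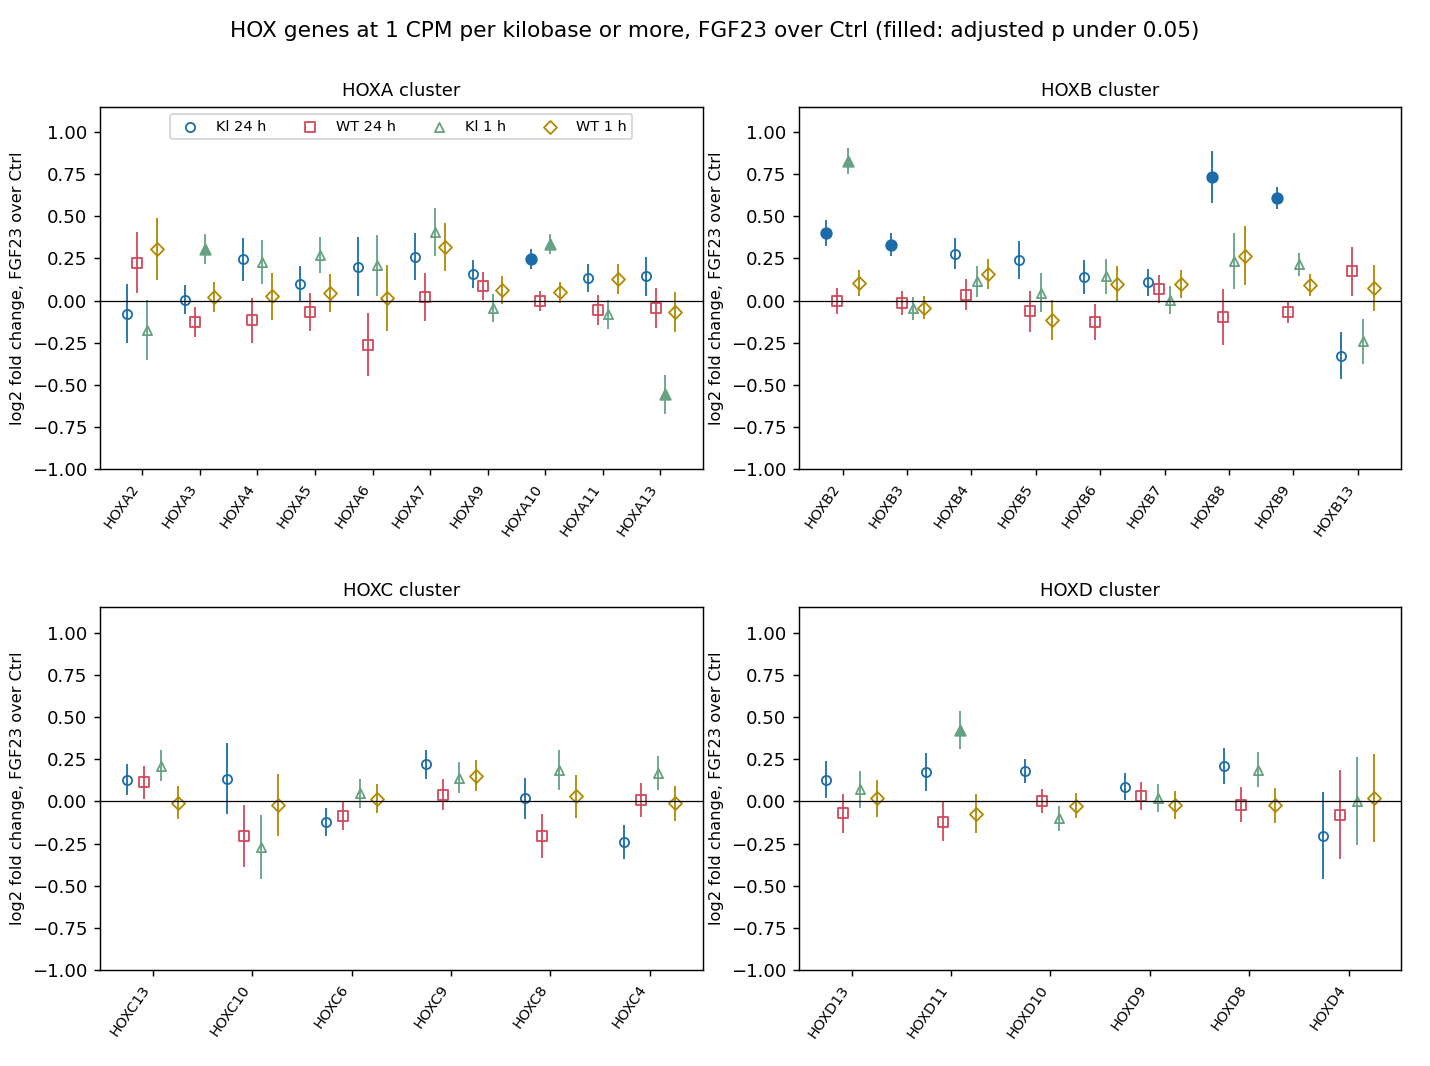
Log2 fold change of FGF23 over Ctrl with its SE for HOX genes that averaged at least 1 CPM per kilobase, by cluster in chromosome order, in Kl and WT at 24 h and 1 h. Filled points are genes at an adjusted p under 0.05. They are HOXB2, HOXB3, HOXB8, HOXB9 and HOXA10 in Kl at 24 h, and HOXB2, HOXA3, HOXA10, HOXA13 and HOXD11 in Kl at 1 h, with none in WT.

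Whether the response differs between the lines was tested as the response in Kl minus that in WT. At 24 h 4 of 37 HOX genes had a larger response in Kl and none a smaller one (2.46% and 1.32% of all genes), and all 4 are in HOXB. HOXB9 differed by 0.68 ± 0.10 (adjusted p = 2.00e-05), HOXB8 by 0.83 ± 0.23 (adjusted p = 0.0361), HOXB2 by 0.40 ± 0.11 (adjusted p = 0.0337) and HOXB3 by 0.35 ± 0.10 (adjusted p = 0.0394) on the log2 scale. HOXB9 was called in every fit that left out 1 library, whereas HOXB2, HOXB3 and HOXB8 were lost in 8, 10 and 9 of the 12 such fits. All 4 were called without the first treated Kl library, and HOXB9 alone without the first or second WT control, the first or the third Kl control or the second or the third treated Kl library. At 1 h HOXB2 was the 1 HOX gene with a difference between the lines, at 0.73 ± 0.11 (adjusted p = 1.22e-04) (0.708% of all genes were larger in Kl and 0.0281% smaller), and it was called in every fit that left out 1 library. HOXA10, called in Kl at both times, did not pass the test of the difference, at 0.25 ± 0.08 (adjusted p = 0.102) at 24 h and 0.28 ± 0.08 (adjusted p = 0.154) at 1 h.

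The lists of genes that act on the clusters were read for FGF23 in Kl cells as well, and the genes called there were named after their values were seen. Over all genes, 4.91% were higher and 3.66% lower at 24 h, and 3.9% and 0.933% at 1 h. Of 9 TALE cofactors PBX2 was lower at both times (-0.29 at 24 h and -0.20 at 1 h) and PKNOX2 lower at 24 h (-0.65), with none higher. The Polycomb genes called included CBX2, which was lower at 24 h (-0.31), and RBBP7 (0.18) and EZH1 (-0.28), higher and lower at 1 h. Of 16 MLL and trithorax genes KDM6B (0.82), which removes the Polycomb histone mark, and DOT1L (0.42) were higher at 1 h, and at 24 h AFF1 was higher (0.26) and MLLT1 (-0.23) and MLLT3 (-0.30) lower. Of 15 retinoid and CDX genes none was called at 1 h, and at 24 h DHRS3 was higher (0.49) and RARB lower (-0.48). Of 11 chromatin architecture genes MAZ was higher at 1 h (0.37), and at 24 h RAD21 was higher (0.24) and GMNN lower (-0.21).

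Of 11 tested kidney epithelial markers in Kl, 1 was higher with FGF23 and none lower at each time. It was KRT18 (0.70) at 24 h and KRT8 (0.28) at 1 h, and the list had median log2 fold changes of -0.07 and -0.04. Of 10 tested neuronal and adrenal markers 2, NEFM (0.63) and GAP43 (1.00), were higher and none lower at 24 h, with a median of 0.28. None of these 10 was called at 1 h. Over all genes, 4.91% were higher and 3.66% lower at 24 h, and 3.9% and 0.933% at 1 h. The kidney epithelial list summed to 694 to 743 CPM in treated Kl cells and 591 to 618 CPM in Kl controls at 24 h, and to 644 to 798 CPM in treated Kl cells and 622 to 672 CPM in Kl controls at 1 h. The neuronal and adrenal list summed to 294 to 309 CPM in treated Kl cells and 280.3 to 291 CPM in Kl controls at 24 h. Among the 20 neighbours of HOXB 2 were higher and 2 lower in Kl at 24 h, with a median of -0.08, and none of the 7 tested other genes inside HOXB was called. The shares over all genes in that comparison were 4.91% higher and 3.66% lower. The part of these genes in the HOXB response was not tested.

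In the authors' deposited table of FGF23 over Ctrl in Kl at 24 h, 6 of 38 HOX genes had an adjusted p under 0.05: HOXB9 (log2 fold change 0.61), HOXB8 (0.73), HOXB2 (0.40), HOXB3 (0.33), HOXA10 (0.25) and HOXD10 (0.18). In the authors' deposited table for Kl at 1 h HOXB2 (0.84) was the 1 such gene of 39. The authors' deposited tables for WT, with 38 HOX genes each, held none. The share of all genes under that cut in the authors' values was not computed, so these counts have no background beside them.

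Controls collected at 24 h were also set against those collected at 1 h within each line. In Kl 6 of 37 HOX genes (16.2%) were higher at 24 h and 1 (2.70%) was lower, against 6.82% and 6.07% of all genes. They were HOXA3 (0.43 ± 0.09), HOXC13 (0.35 ± 0.09), HOXB9 (0.28 ± 0.07), HOXA10 (0.28 ± 0.06), HOXC6 (0.27 ± 0.09), HOXB2 (0.26 ± 0.08) and, lower, HOXC10 (-0.79 ± 0.20). HOXA3, HOXA10 and HOXB9 were the 3 called without the third Kl control library at 1 h, and HOXC10 joined them without the first Kl control library at 24 h. In WT 3 of 37 (8.11%) were higher and 1 (2.70%) was lower, a count near that of all genes (6.08% and 6.45%), and so no result about the HOX genes. These were HOXA6 (0.60 ± 0.18), HOXA4 (0.39 ± 0.13), HOXB9 (0.29 ± 0.07) and, lower, HOXB13 (-0.45 ± 0.14). Without the first WT control library at 24 h none was called. Leaving out the second or the third 24 h library or the first 1 h library left 1 called, and leaving out the second 1 h library left 2.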

How the data were processed

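RNA from 24 libraries in 8 groups of 3 (Kl or WT, FGF23 or Ctrl, 24 h or 1 h) was sequenced with a kit of the NEBNext Ultra family, per the labels' protocols. The authors deposited 4 tables, each of 1 line at 1 time, with raw whole-number counts per gene. The same tables hold FPKM values, per the file headers, and columns of the signal kind, which are the authors' counts after scaling between libraries. They also hold the authors' deposited log2 fold changes of FGF23 over Ctrl and the deposited p-values with their adjusted values. The submitters' processing notes name the mouse build mm10. The deposited gene identifiers, starts and ends of all 34305 genes match the human GENCODE 29 annotation, so human genes are reported. The aligner settings and the use of strand in counting are not given in the sources used here.

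Here the counts of the 4 tables were joined by gene identifier, which left 25355 genes present in all of them and 34305 in any. Of the 39 HOX genes, 38 were in every table. Library totals of 15849564 to 30446989 counts set the precision. Genes with enough counts by the default filter of edgeR 4.0.16 (17790 genes, 37 of them HOX genes) were scaled by TMM and fitted with a mean per group over all 24 libraries (16 residual degrees of freedom) by the robust quasi-likelihood method in R 4.3.3. P-values were adjusted over all genes tested by Benjamini and Hochberg, and a gene was called at an adjusted p under 0.05. The SE of a log2 fold change was taken from its F statistic. Kl was set against WT within each treatment and time, FGF23 against Ctrl within each line and time, the FGF23 response in Kl against that in WT, and 24 h controls against 1 h controls. The procedure was tested on simulated counts.

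HOX genes and all other lists were chosen with earlier results of these data known. The HOX genes called in any comparison are named, except that 1 HOX gene and 1 gene of another list are not reported here by name, value or point; counts and medians include them. Otherwise values per library are given for genes called in both untreated line comparisons with the 10 smallest p at 24 h, for the highest gene of each cluster and for genes called for FGF23 or its difference between lines. From the other lists, up to 6 genes called in both untreated line comparisons are named, and other names are marked where they appear. Promoter windows are from RefSeq. Alternatives were RLE scaling, library size alone, no filter, a CPM of at least 1 in 3 libraries, DESeq2 1.42.0, limma 3.58.1 with a spread per group, a fit of only the libraries compared, the replicate number as a block, and leaving out each library. A removal of the GC trend, and a fit without the Kl FGF23 1 h libraries, were chosen after seeing the data. Tables were made with pandas 2.3.3 and numpy 2.4.6 under Python 3.11.15, and figures were drawn with matplotlib 3.10.9.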

Additional observations from a re-analysis of the deposited data

Results flagged for a closer look

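In 5 cases the response of a HOXB gene to FGF23 differed between the lines by the test of the difference itself, with the response in Kl the larger each time. HOXB2 at 1 h differed by 0.73 on the log2 scale. At 24 h the differences were 0.83 for HOXB8, 0.68 for HOXB9, 0.40 for HOXB2 and 0.35 for HOXB3. In edgeR's quasi-likelihood test the adjusted p values at 24 h were 0.0361, 2.00e-05, 0.0337 and 0.0394 in the same order, and that at 1 h was 1.22e-04. Of all genes tested, 2.46% had a larger response in Kl at 24 h and 0.708% at 1 h. Over the alternatives, with leaving out a library among them, HOXB9 at 24 h kept its call in 23 of 23 and HOXB2 at 1 h in 22 of 22. At 24 h HOXB8, HOXB2 and HOXB3 kept theirs in only 14, 15 and 11 of 23.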

How the results depend on the processing

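The 103 named fold changes gave 1108 results under alternatives other than leaving out a library. Of these results 1049 kept their call, 59 lost it and none reversed. Another 648 results came from the 24 fits that each left out 1 library, and 542 of them kept the call. For Kl over WT, the count of HOX genes called was 11 to 15 at 1 h and 14 to 18 at 24 h without FGF23, and 19 to 21 at 1 h and 21 to 25 at 24 h with it, over the fits with 1 library left out. For FGF23 in Kl these fits called 3 to 6 at 1 h and 5 to 6 at 24 h, and in WT 0 at both times. The difference between lines gave 1 to 2 at 1 h and 1 to 4 at 24 h, and 24 h over 1 h controls gave 3 to 6 in Kl and 0 to 4 in WT. With only the libraries compared, treated Kl over WT at 1 h gave 9, FGF23 in Kl gave 1 at 1 h and 10 at 24 h, and time in WT gave 7. With limma and a spread per group these counts were 11, 3, 11 and 7. Without a filter the difference between lines at 1 h gave 3, and with DESeq2 2. Of the alternatives chosen after seeing the data, removal of the GC trend gave 3 for FGF23 in Kl at 1 h and 4 for time in Kl. The same removal with only the libraries compared gave 1 at 1 h and 12 at 24 h for FGF23 in Kl, and 9 for the difference between lines at 24 h. Without the Kl FGF23 1 h libraries, FGF23 in Kl at 24 h gave 11 and time in WT 8. The cause was not tested, except that fewer libraries and genes enter some fits by construction. The share of all genes called moved with the fit too. For FGF23 in Kl at 24 h it was 4.91% higher and 3.66% lower in the main fit. In either direction it was 19.3% with only the libraries compared and 17.9% with limma and a spread per group. Shares for most other alternatives, with a block or 1 library left out among them, are not given, so those counts are no result about the HOX genes.

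Replicate numbers are shared between groups, but nothing says that a number marks a shared culture or day, and same-numbered libraries correlated at -0.04 to 0.12 in their deviations. All 3 numbers correlated best with their own in 3 of 10 comparisons, FGF23 against Ctrl at 1 h in each line and 24 h against 1 h controls in Kl, as a hint from the data only. With the replicate number as a block, Kl over WT called 15 at 1 h and 19 at 24 h without FGF23 and 19 and 24 with it. For FGF23 in Kl the block gave 4 at 1 h and 6 at 24 h, for the difference between lines 1 and 4, and for time 7 in Kl and 5 in WT. Low counts limit HOXC5, HOXD3 and HOXD12, whose fold changes have SE of 0.48 to 0.70 for Kl over WT at 24 h.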
